A study of Mus musculus with 8 samples.

Results

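The transcriptome of wild-type muscle stem cells was described from the 4 wild-type libraries of a series of 8. All 17847 rows of the expression table that carry a gene symbol were ranked by their mean log2 CPM, the base-2 logarithm of reads scaled to a library of 1000000, over these 4 libraries, and the spread of each gene between them was measured. The cells came from the skeletal muscle of C57Bl/6 mice labelled wild-type, the controls of an experiment in which a floxed Cox10 allele and Pax7-Cre (ERT2), a tamoxifen-dependent recombinase expressed from a stem cell gene, were combined in adult animals. Tamoxifen was given as 1 intraperitoneal dose of 200 mg/kg, and cells were purified 2 days later. This treatment is recorded for the wild-type samples as well, so these are cells of tamoxifen-treated animals. Whether the wild-type animals carried the recombinase or the floxed allele is not given in the sources used here, nor is their sex or exact age. Muscle was digested with collagenase and dispase for 30 minutes at 37 °C, and the sort kept CD34-positive cells that took up no DAPI, a dye of dead cells, and lacked Sca1, CD31 and CD45. No label says that the 4 libraries came from separate animals, so the spread between them may be technical. Only 1 genotype is described, and no test between groups was made.

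Muscle stem cells, or satellite cells, lie between a muscle fibre and its basement membrane and carry the transcription factor Pax7. In uninjured adult muscle most of them are quiescent, a resting state outside the cell cycle that is held by Notch and calcitonin receptor signalling. On injury or isolation they leave this state, switch on Myod1, divide, and then fuse into fibres or return to rest. Freeing them from tissue by warm enzymatic digestion is known to induce immediate-early and heat shock transcripts.

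Between 2148067 and 4649960 reads counted in genes could be recovered per library from the step size of the low values, with the fewest in replicate 2 and the most in replicate 3. A value of 0 stands for a CPM of 1 or less and was held by 278 (replicate 3) to 1035 genes (replicate 2). In all 4 libraries 16283 genes lay above that floor, and 38 were at the floor throughout. Library-wide medians of log2 CPM were 4.28, 4.07, 4.40 and 4.35 in replicates 1 to 4.

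Expression was spread over many genes. A mean log2 CPM of 10 or more was reached by 22 genes, of 8 to under 10 by 637, and of 5 or more by 7067, which is 39.6% of the rows. A further 6825 genes lay between 2 and 5, and 3955 below 2. The 100 leading genes held 8.92% ± 0.62 of the CPM (SD, n = 4), and between 1513 and 1846 genes were needed to make up 50% of a library. Drawn on a log scale of rank, the curve of level falls slowly over the leading 1000 genes and steeply after that.

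**Figure D1:**
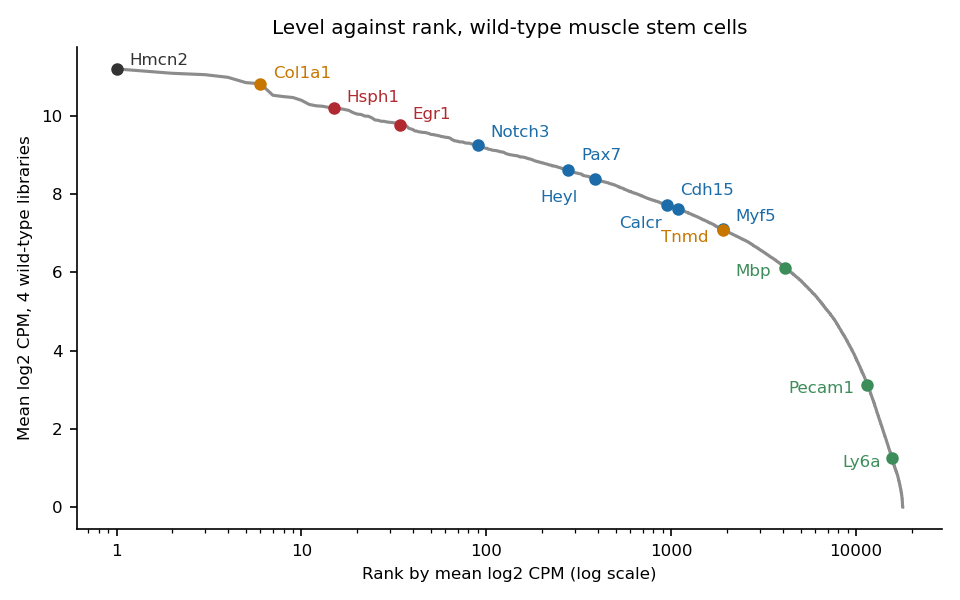
Mean log2 CPM over the 4 wild-type libraries (vertical axis) against rank (horizontal axis, log scale), with the grey line through all 17847 genes. Blue points are the 6 stem cell markers, red are a heat shock and an immediate-early gene, orange are a collagen and a tendon marker, and green are markers of other cells or of the sort's excluded populations; the blue points lie between rank 90 (Notch3) and rank 1898 (Myf5), and Pecam1 and Ly6a at ranks 11501 and 15611.

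The highest mean was that of Hmcn2, which encodes a hemicentin, a giant extracellular matrix protein, at 11.09, 11.37, 11.18 and 11.18 log2 CPM in replicates 1 to 4. Ahnak, a giant scaffold protein (11.03, 11.44, 10.92 and 10.98), and the transcriptional repressor Zbtb20 (11.00, 11.23, 10.95 and 11.05) followed. Hmcn2 lay above Zbtb20 in each library and below Ahnak in replicate 2, while Ahnak and Zbtb20 changed places between libraries. Perlecan (Hspg2, mean 10.99), the endocytic receptor Lrp1 (10.86), and the collagen I chains Col1a1 (10.83) and Col1a2 (10.53) completed the leading 7. Matrix genes took 4 further places among the leading 20: Fn1 for fibronectin (10.40), Col3a1 (10.26), Tnxb for tenascin X (10.17) and Lama2, the laminin chain of the muscle basement membrane (10.05). Long cytoskeletal genes held another 4, with the linkers Dst (10.50) and Plec (10.47), the spectrin Sptbn1 (10.19) and the dynein heavy chain Dync1h1 (10.09). Malat1 and Xist, 2 nuclear long noncoding RNAs, stood at 10.30 and 10.15. The other places were taken by Peg3, an imprinted gene that marks muscle stem cells (10.22), the chaperone Hsph1 (10.20), and the predicted gene Gm26917 (10.25).

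CPM does not correct for transcript length, and length moved with rank. A length could be matched for 14202 genes (79.6% of all, and 98.3% of those at 5 or more). The median transcript of the 100 leading genes measured 9111.5 bases, against 3060 over all matched genes, and Spearman's rho between level and length across these genes was 0.44. The genes share their libraries and are not independent, so this is a description. Per kb of transcript only 23 of the same 100 genes stayed among the leading 100. Hmcn2 and Gm26917 have no matched length.

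An order by log2 CPM is therefore partly one of length, and values per kb are given below where levels of different genes are set against each other in detail. On that scale the ribosomal RNAs of the mitochondrion led, mt-Rnr2 at 8.79 and mt-Rnr1 at 8.61 log2 CPM per kb. They were followed by Hsph1 (8.27), Col1a1 (8.26), the immediate-early transcription factors Fos (8.20) and Egr1 (8.18), the growth-arrest gene Gas1 (8.16), the chaperone Hsp90ab1 (8.14) and Col1a2 (8.11). The remaining 11 of the leading 20 were mt-Co1, mt-Nd5, Hnrnpa2b1, mt-Cytb, mt-Nd6, Sparc, Eef2, Hspa8, Thbs4, Col3a1 and Gsn, between 8.07 and 7.77. Col1a1, Col1a2, Col3a1 and Hsph1 were the 4 genes in the leading 20 of both rankings. These 20 places held 6 mitochondrial transcripts, 3 chaperones, 3 collagen chains and 2 immediate-early factors.

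All 6 defining markers of muscle stem cells were high in every library. Pax7, the transcription factor that specifies the lineage, measured 8.72, 8.77, 8.45 and 8.52 log2 CPM in replicates 1 to 4 (mean 8.62 ± 0.15, SD, n = 4), rank 278 and above 98.4% of the genes. Notch3, a Notch receptor, measured 9.24, 9.38, 9.08 and 9.30 and ranked 90. Heyl, a repressor induced by Notch, measured 8.58, 8.60, 8.29 and 8.10 and ranked 386. By log2 CPM, Notch3 lay above Pax7 and Pax7 above Heyl in each library. The cell adhesion gene Cdh15 (M-cadherin) measured 7.85, 7.75, 7.64 and 7.64, and the calcitonin receptor Calcr 7.71, 7.67, 7.58 and 7.54, below Cdh15 in each library. Myf5, a myogenic factor of committed stem cells, was the lowest at 7.25, 7.29, 6.94 and 6.92, rank 1898, and still above 89.3% of the genes.

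Per kb the same 6 genes were far closer together. Their means spanned 2.15 on the log2 CPM scale and 0.53 on the log2 CPM per kb scale. Notch3 (6.25), Heyl (6.21), Pax7 (6.07), Myf5 (6.04) and Cdh15 (6.02) had overlapping ranges over the 4 libraries. Compared within each library, Notch3 still lay above Pax7, Myf5 and Cdh15 per kb. Calcr (5.71, range 5.63 to 5.80) lay below all the others. The order by CPM, in which Myf5 came last, was thus not the order per kb, where Myf5 and Pax7 could not be separated by their spread.

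A wider list of 47 measured genes of satellite cell quiescence and identity had a median of 8.17 log2 CPM, against 4.25 over all genes. Of these, 45 reached 5 and 26 reached 8, and 8 ranked among the leading 100. Its highest members were Peg3 (10.22, 10.29, 10.19 and 10.19 in replicates 1 to 4), Lama2, the collagen V chain Col5a1 (mean 9.62), the dystrophin gene Dmd (9.46), the growth factor receptor Fgfr1 (9.46) and Notch2 (9.45). Peg3 varied by 0.10 between the highest and the lowest library on the deposited scale. Several members outside the naming rule, chosen after their values were seen, are known regulators of rest. The transcription factor Foxo3 stood at 8.81, Spry1, an inhibitor of growth factor signalling, at 7.83, and the adhesion receptor Vcam1 at 8.48. The cell cycle inhibitor Cdkn1b (p27) held 7.09, 7.14, 7.07 and 7.17, a range of 0.10 on the same scale. Only Hes6 (4.01) and Fbxl22 (3.70) of the measured members lay below 5, and both were named after their values were seen.

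Receptors and adhesion molecules gave a median of 7.67 over 39 genes, 37 of them at 5 or more. By log2 CPM the leading ones were Il6st, the shared receptor chain of the interleukin 6 family (9.55), Dag1 for dystroglycan (9.53), Fgfr1, Notch2, Egfr (9.26) and Notch3. Il6st measured 9.61, 9.82, 9.31 and 9.47, and Dag1 9.52, 9.68, 9.37 and 9.53. Per kb, Fgfr1 (7.13) and Dag1 (7.02) were above Il6st (6.44) and Egfr (5.91), with no overlap between the first pair and the second over the 4 libraries. The lowest of the 39 was Acvr2b, an activin receptor, at 4.42, named after its value was seen.

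Of 34 measured myogenic transcription factors and their partners, 26 reached 5. Tcf4, an E protein partner of the myogenic factors, was the highest by log2 CPM (9.34, 9.34, 9.23 and 9.32), followed by the nuclear factor Nfix (8.87), Pax7, Tcf12 (8.06) and, among others, Mef2d (7.70). Per kb, Nfix (6.41) had a higher mean than Tcf4 (6.21). The other myogenic factors of this paragraph were named after their values were seen. Myod1, which marks activation, measured 6.94, 6.86, 6.32 and 6.35 log2 CPM, and 5.72 per kb. Myog, which marks differentiation, measured 6.22, 5.31, 6.27 and 6.63, and 5.53 per kb. The values of Myod1 in replicates 1 and 2 lay above those in replicates 3 and 4, and Myog was lowest in replicate 2. Per kb, Myod1 lay below Pax7 in each library, and Myog lay below it in all but replicate 4. Pax3, the paralogue of Pax7, measured 4.83, 4.85, 4.79 and 4.10. Myf6, the factor of mature fibres, measured 1.76, 2.36, 1.95 and 1.16, near the floor.

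Notch signalling holds satellite cells at rest: ligands on a neighbouring cell trigger cleavage of the receptor, whose freed tail joins Rbpj and switches on Hes and Hey repressors. The pathway list had 35 measured genes with a median of 6.40, and 22 reached 5. By log2 CPM the receptors Notch2 and Notch3 were at the top of the list, but per kb Dtx4 (6.39) and Hes1 (6.36) had higher means than either. Notch2 measured 9.46, 9.42, 9.44 and 9.49, Notch3 is given above, and Notch1 measured 8.56, 8.45, 8.63 and 8.57. Notch4, the endothelial receptor, was at 2.34, 1.90, 2.83 and 1.90, and it and the other pathway genes in the rest of this paragraph, apart from Heyl, Dtx4 and Rbpj, were named after their values were seen. Per kb, Notch3 (6.25) lay above Notch2 (6.06) in each library, with Notch1 at 5.31 below both. Of the ligands, Jag1 measured 7.22, 7.19, 7.30 and 7.23 and Dll1 6.57, 5.83, 6.54 and 6.66, whereas Dll4 (1.50, 0, 0.37 and 0) and Dll3 were at or near the floor. Per kb, Jag1 stood at 4.75 and Dll1 at 4.56. Dtx4, a Notch-binding ubiquitin ligase, reached 8.78, and Rbpj 8.05. Among the repressors, Heyl (6.21 per kb) and Hes1 (6.36) were above Hey1 (5.36), and Hey2 (2.77) was lower still. The fringe enzymes that tune ligand choice were low, with Lfng at 2.36 and Mfng at 0.96 log2 CPM.

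Transcripts of activation were present beside those of rest. The 20 genes of this list had a median of 6.66, and 15 reached 5. The highest were Megf10 (8.89), a receptor of proliferating satellite cells, Runx1 (8.79), Ncam1 (8.39), Myc (7.86), Ccnd2 (7.44) and Dek (7.19). Megf10 and the imprinted gene Mest are also on the quiescence list. Runx1 measured 8.92, 9.19, 8.59 and 8.47, and Myc 7.98, 8.35, 7.65 and 7.44. Both were highest in replicate 2 and lowest in replicate 4. The list also holds near-silent members, such as Hmga2 at 0, 0, 0.59 and 1.16, named after its values were seen.

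Mitotic transcripts were low. The median of 30 mitotic genes was 3.56, and 5 of them reached 5. Mki67, the proliferation antigen, led with 7.48, 7.06, 8.49 and 7.77 and ranked 983. Per kb its mean was 4.37, below the 6.07 of Pax7 but above 3.47, the median over all genes with a length. Cenpf measured 6.16, 5.92, 7.14 and 6.26, and Top2a, the topoisomerase of chromosome separation, 6.21, 5.32, 7.06 and 6.20. The same order of libraries held across the list. Replicate 3 was the highest in 30 of 30 genes and replicate 2 the lowest in 28. Over all 17847 genes, replicate 3 was the highest in 5179 (29.0%) and replicate 2 the lowest in 7826 (43.9%). Replicate 2 is the shallowest library and has the lowest median, and its part in this order was not tested. With the columns shifted to the same median (by -0.01, 0.20, -0.11 and -0.07 in replicates 1 to 4), replicate 3 was the highest in 29 of 30 and replicate 2 the lowest in 26, against 3077 (17.2%) and 3965 (22.2%) of all genes. DNA replication genes were near the level of all genes, with a median of 4.19 over 29 genes and 11 at 5 or more, with Rfc1 (6.66), Mcm4 (6.25) and Pola1 (6.14) at the top, and replicate 3 was the highest in 25 as deposited and in 19 after the shift, against the same 29.0% and 17.2% of all genes. Of the brakes and cyclins of the same step, 12 of 16 reached 5, led by Ccnd2, Cdkn1b and Ccnd3.

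Fibre and differentiation genes had a median of 3.71 over 31 measured members, 10 of which reached 5. Ttn, the giant sarcomere protein titin, measured 9.08, 7.77, 8.60 and 9.26 and ranked 251, but per kb it stood at 2.03, since its transcript is very long. Tpm1 (7.30), Neb (6.81), Actn3 (6.74), Chrna1 (6.59) and Ryr1 (6.39) followed. Actn3, a sarcomeric actinin, held 6.76, 6.73, 6.76 and 6.72. Abundant fibre transcripts named after their values were seen were low: the muscle creatine kinase Ckm measured 2.34, 1.22, 2.95 and 3.08, and the fast myosin Myh4 3.30, 3.07, 4.55 and 4.68. Replicate 2 was the lowest in 25 of the 31 genes (43.9% of all genes), and in 23 after the shift to the same median (22.2% of all genes).

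The immediate-early list was high throughout. All 40 genes reached 5, 21 reached 8, and the median was 8.02. Egr1 measured 9.75, 10.19, 9.53 and 9.64, Fosl2 9.51, 9.92, 9.16 and 9.13, Fosb 9.37, 9.60, 9.27 and 9.19, Fos 9.24, 9.67, 9.06 and 9.14, and Jun 9.24, 9.61, 9.07 and 9.14. Nr4a1, an orphan nuclear receptor, followed at 8.84. Replicate 2 was the highest for each of these 6 genes. Across the list it was the highest in 35 of 40 genes, against 18.1% of all genes and 24.1% of those at a mean of 5 or more. With the columns shifted to the same median it was the highest in 40 of 40, against 40.8% of all genes. Other high lists shared this order after the shift, with 6 of 6 stem cell markers, 36 of 47 quiescence genes and 23 of 24 translation factors. Among the myogenic factors it held in 15 of 34. The order was thus not particular to immediate-early genes. Per kb, 10 of the 40 ranked among the leading 100 genes, and Fos (8.20) and Egr1 (8.18) were above Pax7 (6.07) by over 2 on the log2 scale.

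Chaperones of the heat shock response behaved alike. The 21 genes all reached 5, with a median of 8.46. Hsph1 measured 10.21, 10.59, 9.95 and 10.03, Hsp90ab1 9.48, 9.89, 9.25 and 9.29, Hspa8 9.13, 9.82, 8.72 and 8.68, Hspa5, the chaperone of the endoplasmic reticulum, 9.22, 9.58, 8.82 and 8.75, and Bag3, a co-chaperone, 9.11, 9.48, 8.85 and 8.82. Hsp90aa1 measured 8.72, 9.98, 9.21 and 8.55, the widest range of the list (1.43). Replicate 2 was the highest in 19 of the 21 genes, and in all 21 after the shift, against the same 18.1% and 40.8% of all genes. Other high lists shared that order, as given for the immediate-early genes. Hspa1a (7.95, 8.73, 7.64 and 7.79) and Hspa1b (8.47, 8.98, 8.12 and 8.27) are near-identical copies, named after their values were seen, and how reads were split between them is not given in the sources used here.

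Promoters of some members of the heat shock and immediate-early lists that hold a motif are shown. RefSeq promoter windows on GRCm38.p6 were matched for 11066 of the genes, and the 250 bases before each start site were searched on both strands, a gene counting as positive if any of its start sites was. The heat shock element core GAANNTTC was found in 680 genes (6.15%), in 6.04% of genes at a mean of 8 or more, and in 6 of the 15 heat shock genes with a window. The cAMP response element in its short form TGACGT was found in 1226 genes (11.1%), in 16.7% of genes at a mean of 8 or more, and in 10 of the 31 immediate-early genes with a window. Among the genes with values given above, Hsph1, Hspa5, Bag3, Fosl2, Fosb, Jun and Nr4a1 had a window without the motif of their list. No window was matched for Hsp90ab1, Hspa8, Hsp90aa1 and Egr1. The matches are descriptions of the letters and not of binding. The stretches below hold the motif in capitals with up to 40 bases on each side, 5′ to 3′ on the gene's strand. In Btg2 the capitals hold 2 overlapping matches, 1 on each strand. Hspa1a lies at chr17:34972213-34972300 (minus strand), and the 88 bases of Hspa1b at chr17:34959295-34959382 (minus strand) are identical to it. Dnaja1 lies at chr4:40722304-40722391 (plus strand). The window of Hspe1 at chr1:55088024-55088111 (plus strand) is shared with Hspd1, which is read from the other strand. Fos lies at chr12:85473784-85473869 (plus strand), Btg2 at chr1:134079276-134079361 (minus strand) and Atf3 at chr1:191183334-191183381 (minus strand, where the motif is read on the opposite strand).
Hspa1a and Hspa1b: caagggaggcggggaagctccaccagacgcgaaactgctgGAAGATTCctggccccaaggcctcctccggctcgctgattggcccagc
Dnaja1: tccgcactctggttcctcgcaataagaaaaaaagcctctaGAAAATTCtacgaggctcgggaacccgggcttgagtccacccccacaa
Hspe1: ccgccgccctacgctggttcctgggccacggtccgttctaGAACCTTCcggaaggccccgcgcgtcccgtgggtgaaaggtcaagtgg
Fos: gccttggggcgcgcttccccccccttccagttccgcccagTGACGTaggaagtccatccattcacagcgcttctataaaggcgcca
Btg2: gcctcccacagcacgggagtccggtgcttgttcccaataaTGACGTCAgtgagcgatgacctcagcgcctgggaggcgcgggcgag
Atf3: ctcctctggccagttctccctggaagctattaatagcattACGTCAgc

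The genes behind these sequences were all high. The cochaperone Dnaja1 measured 9.07, 9.31, 8.69 and 8.94 log2 CPM, and the mitochondrial chaperonins Hspd1 and Hspe1, which share the window, 8.65, 9.0, 8.31 and 8.16, and 7.17, 7.38, 6.85 and 7.0. Per kb the pair stood at 7.25 and 7.47. The antiproliferative gene Btg2 measured 8.72, 9.04, 8.38 and 8.47, and the stress-induced factor Atf3 8.57, 8.95, 8.16 and 8.25. In each of these 5 genes replicate 2 was the highest. They were named after their values were seen.

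Among the lists with more than 1 measured gene, extracellular matrix had the highest median log2 CPM, 9.31 over 30 genes. All 30 reached 5, 26 reached 8, and 17 ranked among the leading 100. Per kb the median was 6.69, against 3.47 over all genes with a length, and 11 members were among the leading 100. On that scale the mitochondrially encoded (7.43) and heat shock (6.97) lists had higher medians. Basement membrane genes included Hspg2 (10.86, 10.99, 10.98 and 11.13 in replicates 1 to 4) and Lama2 (mean 10.05, from 9.98 in replicate 1 to 10.12 in replicate 2). Collagens of the interstitial matrix included Col1a1 (10.56, 11.11, 10.66 and 10.97), Col1a2 (10.25, 10.77, 10.38 and 10.73) and Col3a1 (10.12, 10.41, 10.23 and 10.29). Replicate 1 was the lowest in 26 of the 30 genes (15.8% of all genes), and in 22 after the shift to the same median (21.5% of all genes). Replicate 4 was the highest in 20 as deposited (26.4% of all genes). After the shift replicate 2 was the highest in 18 (40.8% of all genes) and replicate 4 in 10 (3756 of all 17847 genes). The high end of that order therefore depends on the scaling.

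**Figure D2:**
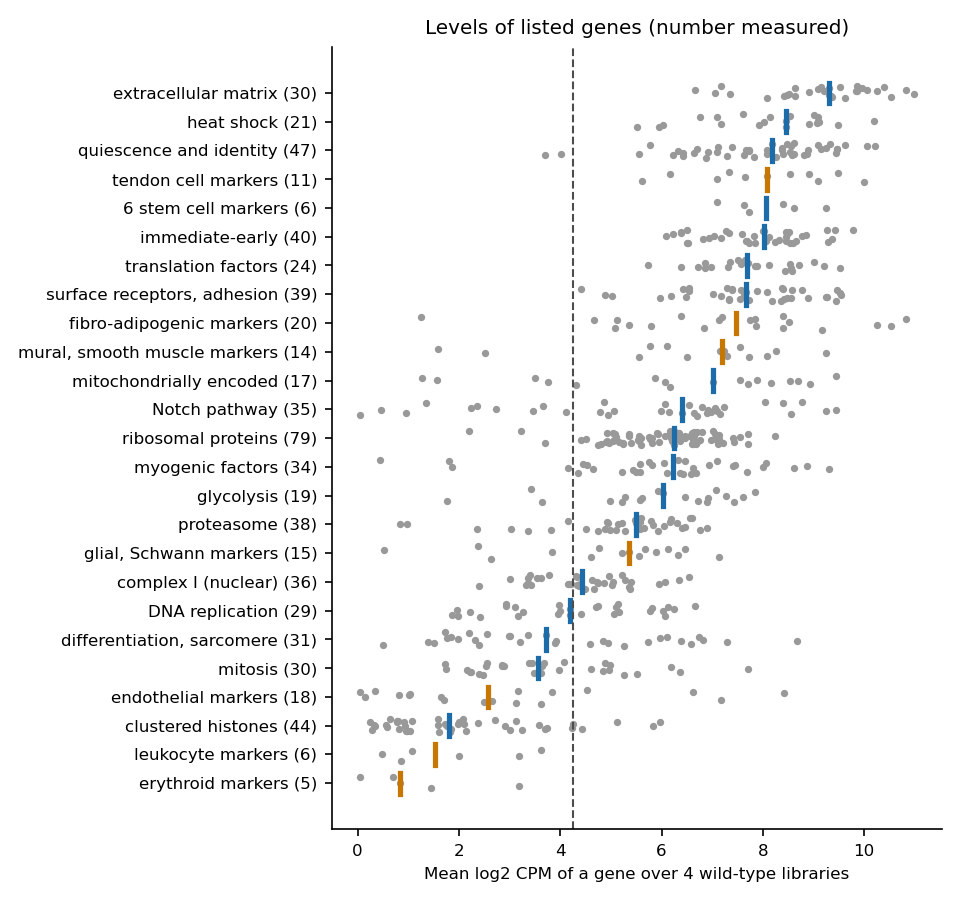
Mean log2 CPM over the 4 wild-type libraries for the measured members of 25 gene lists (grey points, 1 per gene, spread vertically at random), with the median of each list as a bar (orange for markers of other cell types, blue for the rest) and the number of measured genes in brackets. The dashed line is the median of all genes, 4.25; the bars of matrix, heat shock, quiescence and immediate-early genes lie to its right and those of leukocyte and erythroid markers to its left.

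Markers of tendon cells were high. All 11 reached 5, with a median of 8.09, and per kb their median was 6.38, against 6.05 for the 6 stem cell markers. Col12a1, a collagen of tendon and fascia, measured 9.77 and 9.87 in replicates 1 and 2 and 10.34 in replicate 4, with replicate 3 between the last 2. Thbs4, a tendon matrix glycoprotein, measured 9.40, 9.66, 9.34 and 9.56, and Fmod, the tendon proteoglycan fibromodulin, 8.88, 9.35, 8.83 and 9.26. Col11a1, Chodl and Cilp2 followed at 8.91, 8.53 and 8.09, and Chodl is also on the quiescence list. The 2 genes most particular to tendon cells in common use, named after their values were seen, were also detected. Tnmd (tenomodulin) measured 6.89, 7.10, 7.01 and 7.37 and stood at 6.66 per kb, above the 6.07 of Pax7, and the tendon transcription factor Scx measured 5.29, 5.34, 5.78 and 6.04. Replicate 4 was the highest in 8 of 11, and in 6 after the shift, against 4716 and 3756 of all 17847 genes. These are bulk samples, in which fewer cells of a type and less RNA per cell cannot be told apart, and so the levels do not give a share of cells. The summed CPM of the tendon list ran from 3520 in replicate 1 to 4846 in replicate 4, against 1717 to 2066 for the 6 stem cell markers. These sums cover 11 and 6 genes and are not corrected for length, so their sizes cannot be compared directly. The part of tendon cells in the matrix values was not tested.

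Fibro-adipogenic progenitors, the Sca1-positive mesenchymal cells of muscle, express many collagen genes too. Of 20 listed genes 18 reached 5, with a median of 7.48, and 4 (Col1a1, Col1a2, Col3a1 and Dcn) are shared with the matrix list. The actin-severing protein Gsn (9.18), Smoc2 (8.40) and Pdgfra (8.39) were the highest of the others. Among genes named after their values were seen, Pdgfra, the receptor that defines these progenitors, measured 7.96, 8.18, 8.69 and 8.73, while Pi16 measured 4.87, 4.14, 5.65 and 5.67. Ly6a, which encodes the Sca1 antigen that the sort excluded, measured 1.50, 0, 1.24 and 2.24. Summed over the list, CPM ran from 6377 in replicate 1 to 8508 in replicate 2. In each library most of this sum came from Col1a1, Col1a2 and Col3a1, so it says little about the other members.

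Sort antigens followed the gate. Cd34 measured 7.31, 7.49, 7.24 and 7.53 and ranked 1425. Pecam1, for the excluded CD31, measured 4.32, 2.70, 2.74 and 2.75, and was higher in replicate 1 than in the other libraries. Ptprc, for CD45, was not analysed here. Of 24 leukocyte markers 6 were measured, none reached 5, and Cd68 (3.61) and Lyz2 (3.19) were the highest. Erythroid markers had 5 of 12 measured, with Alas2 (3.19) at the top. The summed CPM was 28.6 to 38.3 for leukocyte genes and 11.4 to 24.0 for erythroid genes.

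Endothelial markers were split. Their median was 2.57 over 18 genes, and Kdr (3.38, 3.29, 4.03 and 4.63), Vwf (4.73, 3.54, 3.24 and 2.99) and Cldn5 (0.17, 0, 0 and 0) were low, the last named after its values were seen. However, 3 genes stood high: Prox1, the lymphatic and myogenic transcription factor (8.40, 8.46, 8.37 and 8.46), the angiopoietin receptor Tek (7.15, 7.40, 7.18 and 6.97) and Cdh5 (6.72, 6.75, 6.49 and 6.52). Replicate 1 was the highest in 10 of the 18 genes, and in 8 after the shift, against 24.2% and 19.4% of all genes. The summed CPM ran from 660 in replicate 4 to 749 in replicate 1. In each library most of this sum came from Prox1, Tek and Cdh5, so it says little about the other members.

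Schwann cell markers were intermediate. Of 15 genes 9 reached 5, with a median of 5.36. The myelin gene Mbp measured 6.52, 6.84, 5.41 and 5.74, and the potassium channel gene Kcna1 6.12, 6.37, 5.17 and 5.02. Both were higher in replicates 1 and 2 than in replicates 3 and 4. Sox10, the transcription factor of the lineage (5.15, 5.29, 3.71 and 4.29), named after its values were seen, was also higher in replicates 1 and 2. Replicate 2 was the highest in 11 of 15 genes, and in 13 after the shift, against 18.1% and 40.8% of all genes. The summed CPM ran from 560 in replicate 3 to 953 in replicate 2. Astrocyte Gfap, also named after its values were seen, was at 0, 0, 0.95 and 1.16.

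Mural and smooth muscle genes had a median of 7.19 over 14 measured members, of which 4 (Notch3, Des, Itga7 and Rgs5) also belong to the stem cell lists. Mylk (7.26, 7.12, 7.56 and 8.22), Cspg4 (7.73) and Pdgfrb (7.30) were the highest of the others. Myh11, the smooth muscle myosin, measured 7.22, 6.53, 7.58 and 7.58, and Acta2 7.36, 6.86, 7.21 and 7.18, while Rgs5, a pericyte gene, measured 6.17, 5.13, 6.08 and 5.69. These 3 were named after their values were seen. The pericyte channel gene Kcnj8 (2.53) and Cnn1 (1.59), named in the same way, were near the floor. The part of mural cells in these values was not tested.

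**Figure D3:**
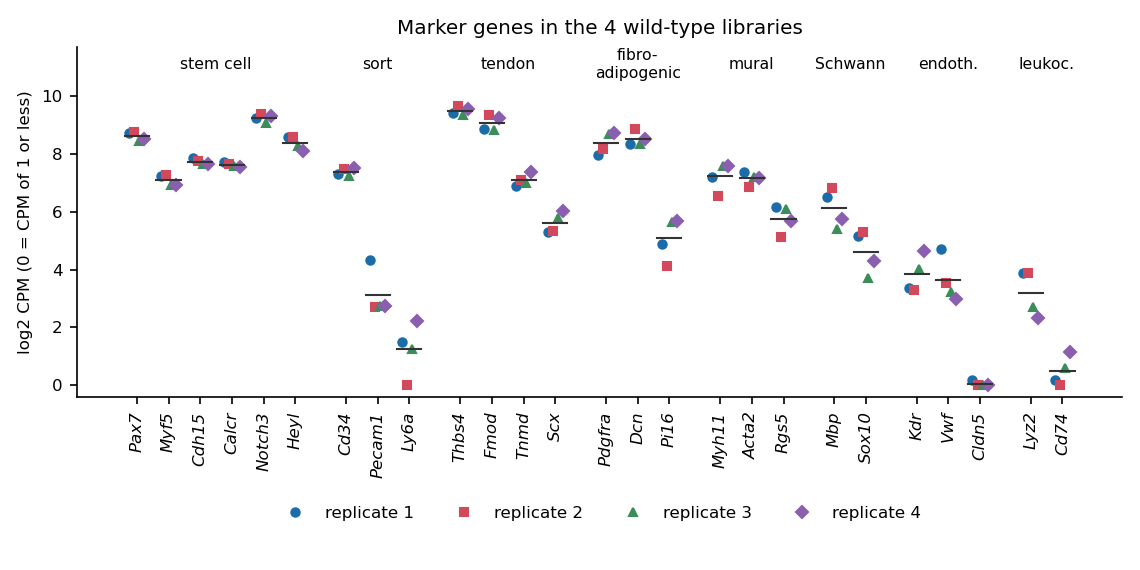
Log2 CPM of marker genes (horizontal axis, grouped by cell type or use in the sort) in each of the 4 wild-type libraries (colours and shapes), with a line at the mean. The 6 stem cell genes and the tendon genes Thbs4 and Fmod lie between 6.92 and 9.66, and Ly6a, Cldn5 and Cd74 near the floor.

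Genes of protein synthesis were abundant per kb. The 24 translation factors had a median of 7.68 log2 CPM and 6.20 per kb, with Eef2, the elongation factor (9.57, 9.87, 9.28 and 9.39), and Eif4g2 (9.21) at the top. The 79 ribosomal protein genes had a median of 6.24 log2 CPM and a higher value of 6.41 per kb, since their transcripts are short, and 20 of them ranked among the leading 100 per kb. Rpl4 (8.27, 8.60, 7.99 and 8.08) and Rpl3 (7.50, 8.18, 7.36 and 7.82) were the highest. Replicate 2 was the highest in 66 of 79 and replicate 3 the lowest in 52, against 18.1% and 13.6% of all genes. The shift to the same median gave 71 and 60, against 40.8% and 26.5%. Ribosomal protein genes have many processed copies, and how the reads of such copies were counted is not stated in the sources used here. The 38 proteasome genes had a median of 5.50.

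By log2 CPM, glycolytic genes lay above the middle of the ranking and nuclear genes of respiration nearer to it, but this contrast was not seen per kb. Of 19 glycolytic genes 15 reached 5, with a median of 6.04. Pkm, the pyruvate kinase (7.81, 7.94, 7.74 and 7.86), the hexokinases Hk1 (7.61) and Hk2 (7.42), Pfkp (7.28), Aldoa (7.08) and Ldha (6.93) led. Gapdh, named after its values were seen, measured 5.21, 5.11, 5.10 and 5.43. The insulin-dependent glucose transporter of fibres, Slc2a4 (1.77), was near the floor, while Slc2a1 stood at 6.47, and both were named likewise. Whether reads that match several places in the genome were kept is unknown. Their part in the Gapdh value was not tested, so that value may understate its RNA. Nuclear genes of complex I had a median of 4.44 over 36 genes, of complex IV 4.2 over 15, and of ATP synthase 5.21 over 15. Atp5b (7.77, 7.79, 7.74 and 7.74) was the highest of these 3 groups and varied by 0.05 on the deposited scale. Per kb the medians were 4.92 for glycolysis, 4.72 for complex I, 4.77 for complex IV and 5.38 for ATP synthase. Each lay above 3.47, the median per kb over all genes with a length. Complex I genes were lowest in replicate 2 in 29 of 36 as deposited (43.9% of all genes) but in 8 after the shift (22.2%), so that order depends on the scaling.

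Cox10, which encodes the farnesyltransferase of haem A synthesis and is the gene deleted in the other group of the study, was a low transcript in these controls. It measured 3.98, 3.42, 4.12 and 3.69 (mean 3.80 ± 0.31, SD, n = 4) and ranked 9972, from 56, 23, 81 and 52 reads. The counting error expected from those reads was 0.22, which is of the order of the SD. The assembly factors of the same enzyme had a median of 3.65 over 18 genes. Cox15, which acts after Cox10 in the same synthesis, measured 5.28, 5.05, 5.42 and 5.56, and Surf1 5.20, 5.32, 5.20 and 5.41. Cox10 was named after its values were seen.

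Nuclear noncoding RNAs and imprinted genes held high places. Malat1 measured 10.29, 10.80, 9.99 and 10.11, Xist 10.16, 10.29, 10.04 and 10.09, Neat1 9.86, 9.90, 9.58 and 9.41, and Kcnq1ot1 9.61, 9.59, 9.60 and 9.46. Xist, the RNA that silences an X chromosome in female cells, was thus high in each library. Kcnq1ot1 fell to 3.02 per kb because of its length. Of 20 imprinted genes 17 reached 5, led by Peg3, Igf2r (9.58), Kcnq1ot1 and Grb10 (8.89). Kcnq1ot1 lies antisense to another gene, and the use of strand in counting is not given in the sources used here, so reads of the 2 strands may be mixed. Among small structured RNAs, Rpph1, the RNA of ribonuclease P, led with 6.22, 6.45, 5.82 and 5.95.

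The spread between the 4 libraries was small for most genes. Among the 7067 genes at a mean of 5 or more, the median SD was 0.16, and the median counting error expected from the reads was 0.088. The highest and the lowest library differed by under 0.5 in 5091 genes (72.0%), by 1 or more in 251 (3.55%) and by 2 or more in 10. The SD was over 2 times the counting error in 3104 genes (43.9%), and in 76.9% of the genes at 8 or more, where counting error is smallest. Variation beyond counting was thus most often resolved in the highest genes. Below a mean of 2 the median SD (0.53) was no larger than the counting error (0.57). Values held at the floor lower the SD there, so this comparison cannot show that the spread is counting error alone.

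**Figure D4:**
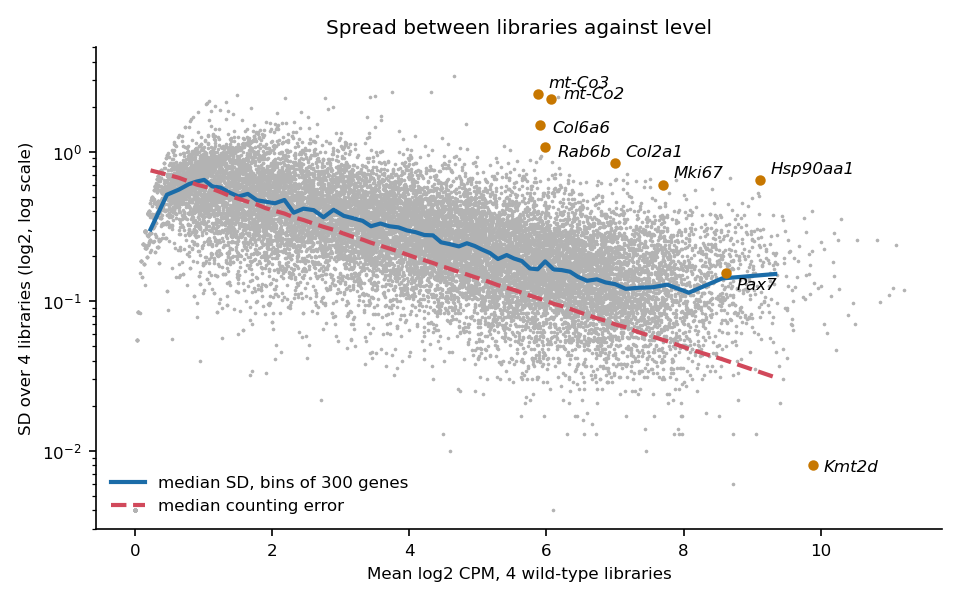
SD over the 4 libraries (vertical axis, log scale, with values under 0.004 drawn at 0.004) against mean log2 CPM for all genes (grey), with the median SD (blue) and the median counting error (red, dashed) in bins of 300 genes. Labelled genes are orange; the blue line stays above the red 1 at high levels, and mt-Co3 and mt-Co2 have the largest SDs of the labelled genes, 2.43 and 2.26.

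Replicates 1 and 2, and replicates 3 and 4, were the closest pairs. In them the median absolute difference was 0.14 and 0.10, and 15 and 16 genes differed by 1 or more. Replicates 2 and 4 were the farthest, with a median difference of 0.24 and 172 such genes. Pearson's r across the 7067 genes was 0.939 to 0.981 over the 6 pairs of libraries. No pair agreed within counting noise, with chi-square per degree of freedom between 2.56 and 6.51, so no pair was merged as 1 library. That does not show that the libraries came from separate animals. The labels name no batch, day or animal that would set these pairs apart.

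The 10 genes with the smallest SD among the 7067, named for that value, were almost level on the deposited scale, with SDs of at most 0.013. After the shift to the same median their SDs were 0.128 to 0.149, so their flatness depends on the scaling. Max, the partner of Myc, read 6.09 in all 4 libraries. The microtubule protein Map4 read 8.71, 8.71, 8.72 and 8.72, the histone methyltransferase Kmt2d 9.90, 9.89, 9.88 and 9.89, and the chromatin remodelling subunit Bptf 9.05, 9.07, 9.05 and 9.04. The other 6 were Ppp1r10, Ep400, Rnf10, Hnrnpl, Phc2 and Tprgl.

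Of the 20 named genes with the largest range, 12 had replicates 3 and 4 above replicates 1 and 2 as deposited, and 11 (not Dkk2) after the shift to the same median. Among all 7067 genes this order held in 33.8% as deposited and in 14.2% after the shift. Col6a6, a collagen VI chain, measured 4.42, 4.83, 6.94 and 7.44, Col7a1, the anchoring fibril collagen, 4.87, 4.22, 6.73 and 5.69, Col2a1, the cartilage collagen, 6.21, 6.36, 7.56 and 7.88, and Lamc3, a laminin chain, 5.44, 4.73, 6.39 and 5.85. Adamtsl2 (5.04, 5.22, 6.46 and 6.94), the protease Pcsk6 (5.39, 5.36, 6.45 and 7.10), the Wnt antagonist Dkk2 (4.48, 5.51, 5.70 and 6.59), the BMP regulator Bmper (4.67, 4.45, 5.87 and 6.14) and the metalloprotease Adam12 (5.95, 5.22, 7.01 and 6.54) had the same order, as did the receptor Cmklr1, the dipeptidase Dpep1 and the apoptosis gene Bmf. Gatm, an enzyme of creatine synthesis, had the opposite one (5.97, 6.56, 4.86 and 5.24).

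The other wide ranges did not follow that order. Rab6b, a trafficking GTPase, measured 6.67, 6.11, 4.41 and 6.70, low in replicate 3. Flrt1, an adhesion protein, measured 5.99, 4.98, 7.12 and 5.56, and the kinetochore motor Cenpe 5.49, 4.03, 6.22 and 5.29. Cenpe followed the order of the mitotic list, with replicate 3 at the top and replicate 2 at the bottom. Among the 251 genes with a range of 1 or more, replicate 4 was the highest in 121 and replicate 2 the lowest in 125. Over the 7067 genes the shares were 26.9% and 40.7%.

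The 3 widest ranges among genes at a mean of 5 or more were mitochondrially encoded. mt-Co3, a subunit of cytochrome c oxidase, measured 7.26, 7.20, 2.24 and 6.82, mt-Atp6, a subunit of ATP synthase, 7.44, 7.46, 2.69 and 7.07, and mt-Co2 7.31, 7.35, 2.69 and 6.89. In replicate 3 they lay 4.96, 4.75 and 4.62 below the median of the other libraries. The low values followed the order of the genes along the mitochondrial genome. A run of 6 measured neighbours, mt-Co2, mt-Atp8, mt-Atp6, mt-Co3, mt-Nd3 and mt-Nd4l, was lower in replicate 3 by between 4.62 and 5.02, with mt-Atp8 and mt-Nd3 at the floor. For mt-Atp8 and mt-Nd3 the difference is therefore a lower bound. On either side of the run mt-Co1 was lower by 0.65 and mt-Nd4 by 1.33. All other measured mitochondrial messenger and ribosomal RNAs were lower by 0.15 to 0.34. mt-Nd5, downstream of the run, measured 8.87, 9.32, 8.66 and 8.85. Among replicates 1, 2 and 4 the SD of the 6 genes was 0.17 to 0.28. These genes other than mt-Co2, mt-Atp6, mt-Co3, mt-Co1, mt-Nd4 and mt-Nd5 were named after their values were seen. The values of mt-Co2, mt-Atp6 and mt-Co3 averaged over the 4 libraries therefore rest on replicate 3, and without it they were 7.18, 7.32 and 7.09.

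**Figure D5:**
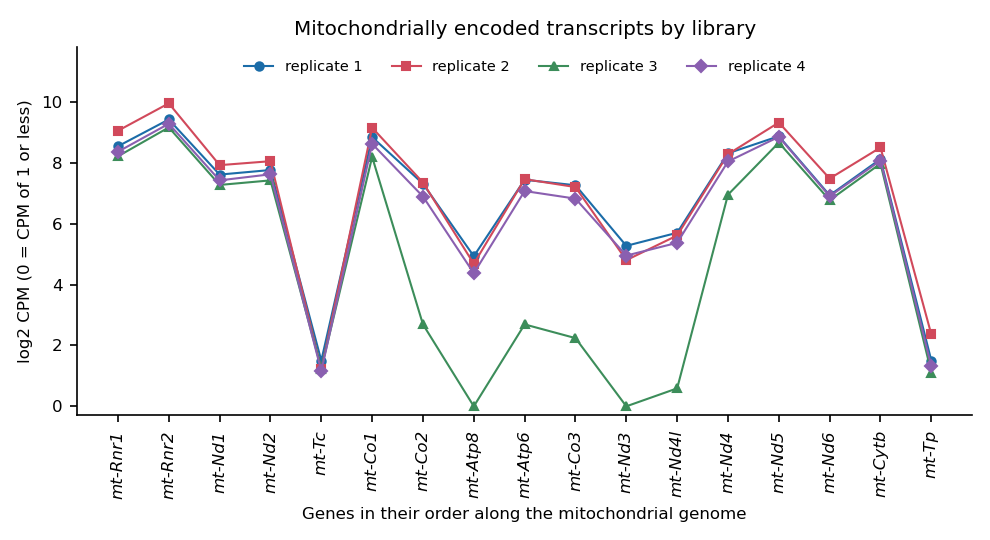
Log2 CPM of the measured mitochondrially encoded genes (horizontal axis, in their order along the mitochondrial genome) in each of the 4 wild-type libraries (colours and shapes). The line of replicate 3 drops from mt-Co2 to mt-Nd4l, where it lies between 0 and 2.69, and returns to the other lines at mt-Nd5.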

How the data were processed

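Per the labels' protocols, total RNA of the sorted cells went into a strand-specific kit for small inputs. The deposited table holds log2 CPM with 2 decimals, in which a CPM of 1 or less stands at 0. Trim Galore, HISAT2, featureCounts, DESeq2 and the mm9 build are named by the submitters' processing notes, with settings not given in the sources used here. Every gene in the table had a mean of 0.5 or more over the 8 libraries, so genes silent in both groups are not analysed here.

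Means, SDs and ranges were computed per gene on the deposited log2 scale over the 4 wild-type columns, with Python 3.11.15, numpy 2.4.6, pandas 2.3.3 and scipy 1.17.1. Linear CPM was taken as the power of 2 and summed to between 994705 and 996164 per library. Low values fell on whole multiples of 1 read (within 0.1 read, for all values up to 20 reads), which gave the reads per library. These were used for the expected counting error only, which covers counting and no other source. The computation was tested on simulated data. Lengths are those of the longest transcript of each gene in GRCm38 annotation. No test between groups was made, since 1 group is described. Pairs of libraries were compared with counting noise by chi-square, and single libraries with the other 3 by Dixon's ratio.

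The 36 gene lists have 963 entries, of which 900 were measured. Members and lists were chosen with earlier results of these data known. Named by rule were the 6 markers, the sort antigens and Xist, the 20 highest genes on each scale, up to 6 highest members of each list, list members with a range of 2 or more, the 20 genes with the largest range and the 10 with the smallest SD, from genes at a mean of 5 or more. Predicted gene models and names that are not gene symbols were left out of the last 2 groups. A few genes that the rule names are not reported here. Alternatives tried were linear means, a pseudocount of 1, genes above the floor only, columns shifted to the same median, values per kb, removal of mitochondrial and small noncoding transcripts, and leaving out each library.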

Additional observations from a re-analysis of the deposited data

Results flagged for a closer look

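In each result here, 1 of the 4 libraries stood apart from the other 3 by a gap that, divided by the whole range, was over Dixon's 95% critical value for 4 samples. Chance gives this in about 1 in 20 groups. It was met by 17 of 244 gene levels and list medians of the text (6.97%), and by 299 of the 7067 genes at a mean of 5 or more (4.23%). The 244 include genes named for a wide range or after their values were seen, and neighbouring mitochondrial genes counted singly. Their share therefore cannot be set against the chance rate.

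The neighbouring mitochondrial genes were low in replicate 3. There mt-Co2 measured 2.69 (6.89 to 7.35 in the other libraries), mt-Atp6 2.69 (7.07 to 7.46), mt-Co3 2.24 (6.82 to 7.26) and mt-Nd4l 0.59 (5.37 to 5.70), while mt-Atp8 (4.37 to 4.93 elsewhere) and mt-Nd3 (4.80 to 5.27 elsewhere) were at 0.

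Pecam1 measured 4.32 in replicate 1 and 2.70 to 2.75 elsewhere. It is the middle of the 3 measured sort antigens in each of these libraries, so the median of that list, 4.32, is the same value. The median of the long noncoding list was 6.02 in replicate 1 and 6.23 to 6.27 elsewhere. Cldn5 and Dll3 were at 0.17 in replicate 1 and at the floor of 0 elsewhere.

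Replicate 2 stood apart for Gm26917 (10.63 against 10.10 to 10.16), Chodl (8.83 against 8.39 to 8.45), Dll1 (5.83 against 6.54 to 6.66) and Lfng (1.48 against 2.57 to 2.69). Replicate 4 did for Kcnq1ot1 (9.46 against 9.59 to 9.61) and for Pax3 (4.10 against 4.79 to 4.85).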

How the results depend on the processing

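Of the leading 100 genes, 23 stayed among the leading 100 per kb of transcript, and 95 to 98 stayed when 1 library was left out. The 100 genes that lead per kb held 4.51% of the CPM, against 8.92% for the 100 that lead by log2 CPM. The number of genes with an SD of 1 or more among those at a mean of 5 or more was 7, and 4 without mitochondrial and small noncoding transcripts. It ran from 4 (without replicate 3) to 11 (without replicate 1) when 1 library was left out. With 3 times the counting error as the limit, 1452 genes passed in place of 3104. The other 54 recomputed values of these 7 results stayed within their limits. Of 2074 recomputed gene levels and list medians, 2050 moved by less than the SD between libraries and 24 by more, of which 11 were under a pseudocount of 1 and 7 with only genes above the floor. For a single gene, leaving out 1 library cannot move the mean by as much as the SD. The shift to the same median hardly changes a gene's mean, and the floor limit leaves the value of a kept gene as it was. The count of 2050 is therefore largely fixed by arithmetic and does not measure robustness. No paired analysis was possible because 1 genotype is described and the values come from no test. Depth limits statements on low genes: below a mean of 2 the spread was no larger than counting error, but the floor also lowers the SD there.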
